A study of Mus musculus with 6 samples.

Results

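The 10 genes described here encode NF-kB subunits (Nfkb1, Nfkb2, Rel, Relb), an NF-kB activating kinase (Ikbke), inhibitors of the pathway (Nfkbia, Tnfaip3) and target cytokines (Tnf, Il1a, Il1b). They were taken as a list of named genes and matched by symbol. All 10 were found among the 16840 genes of the count table, and all 10 passed the filter on low counts, which left 12340 genes. RNA sequencing had been carried out on wild-type mouse alveolar macrophages after culture, at day 2, in 3 groups of 2 libraries. The groups were GM-CSF with DON, GM-CSF alone, and no GM-CSF, where GM-CSF is granulocyte-macrophage colony-stimulating factor, the cytokine on which these cells depend, and DON is an agent that the labels do not spell out. The labels give AM as a cell line without saying whether the cells were primary, and give no strain, age, dose or duration. Whether the 2 libraries of a group came from different cultures or mice is not stated, and the spread behind each p-value may therefore be technical.

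All 10 are protein-coding genes and, with Il1a and Il1b together on chromosome 2, lie apart in the genome (GRCm38, GENCODE M21): Tnf at chr17:35199381-35202007, Il1a at chr2:129299610-129309972, Il1b at chr2:129364570-129371139, Nfkbia at chr12:55489410-55492647, Tnfaip3 at chr10:19000910-19015657, Relb at chr7:19606217-19629438, Nfkb2 at chr19:46304320-46312385, Nfkb1 at chr3:135584655-135691547, Rel at chr11:23736847-23770970, Ikbke at chr1:131254343-131279606. Only Nfkb2 lies on the plus strand.

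NF-kB is a family of dimeric transcription factors. In resting cells the dimers are held in the cytoplasm by inhibitors such as I kappa B alpha, the product of Nfkbia. Signals from Toll-like, TNF and IL-1 receptors activate kinases that mark the inhibitor for degradation, and the released dimers switch on cytokine genes together with the genes of their own inhibitors. In the noncanonical branch, the Nfkb2 product is processed and acts mainly with RelB. Alveolar macrophages live in the air spaces of the lung and are a source of TNF and IL-1 when microbes arrive.

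Total counts lay between 28321986 and 35196387 per library. All 14 alveolar macrophage markers were present, summing to 21550 to 21947 CPM (gene counts relative to the TMM-scaled library size) with DON, 18937 to 19257 with GM-CSF and 19265 to 20036 without it. Singly they were not level between groups. With GM-CSF against none, 9 were lower and 3 higher in the test given below, with log2 fold changes from -2.41 to 11.5. With DON against GM-CSF, 7 were higher and 4 lower. Of all genes tested, 56.8% and 57.6% passed in these comparisons. Of 10 neutrophil markers 4 were measured, and their sum was 11.9 to 13.7 CPM with DON, 6.85 to 7.54 with GM-CSF and 90.2 to 93.0 without it, mainly from Cxcr2, Csf3r and S100a8. The other 6, S100a9, Ly6g, Mpo, Elane, Ngp and Retnlg, had no row in the count table, where the lowest row total was 2 counts. Lymphocyte markers summed to at most 1.97 CPM in any library. Markers of monocytes and dendritic cells summed to 21.7 to 21.8, 20.2 to 20.6 and 8.26 to 9.34 CPM in the same order of groups, and those of epithelium, endothelium and stroma to 27.2 to 27.9, 97.8 to 104 (mostly Cdh1) and 16.01 to 19.5 CPM. The neutrophil sum was highest without GM-CSF, as were several members below, and its part in their changes was not tested.

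The promoters of 4 members are shown because NF-kB genes are known as targets of their own pathway. Nfkbia, Nfkb2 and Tnfaip3 hold matches to the consensus kappaB motif, and Tnf is the member that changed most with DON. Sequences are from RefSeq (GRCm38.p6), 5′ to 3′ along the gene, from 250 bases before to 50 bases after the annotated start. Capitals mark matches to the consensus kappaB motif, searched on both strands, and to TATAAA, searched on the gene strand.
Nfkbia promoter, chr12:55492598-55492897, minus strand: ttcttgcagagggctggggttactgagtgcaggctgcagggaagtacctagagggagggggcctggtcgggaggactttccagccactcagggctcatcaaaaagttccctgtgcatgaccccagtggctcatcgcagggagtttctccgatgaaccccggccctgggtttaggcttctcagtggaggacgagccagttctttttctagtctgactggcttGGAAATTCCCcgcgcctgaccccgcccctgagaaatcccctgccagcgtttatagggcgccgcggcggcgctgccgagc
Nfkb2 promoter, chr19:46304487-46304786, plus strand: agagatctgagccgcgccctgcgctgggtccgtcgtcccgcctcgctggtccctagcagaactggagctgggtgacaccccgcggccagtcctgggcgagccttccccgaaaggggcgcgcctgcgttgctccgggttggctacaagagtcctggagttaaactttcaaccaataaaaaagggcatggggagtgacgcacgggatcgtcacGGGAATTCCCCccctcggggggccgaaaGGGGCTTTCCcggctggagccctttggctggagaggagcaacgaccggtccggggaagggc
Tnfaip3 promoter, chr10:19015361-19015660, minus strand: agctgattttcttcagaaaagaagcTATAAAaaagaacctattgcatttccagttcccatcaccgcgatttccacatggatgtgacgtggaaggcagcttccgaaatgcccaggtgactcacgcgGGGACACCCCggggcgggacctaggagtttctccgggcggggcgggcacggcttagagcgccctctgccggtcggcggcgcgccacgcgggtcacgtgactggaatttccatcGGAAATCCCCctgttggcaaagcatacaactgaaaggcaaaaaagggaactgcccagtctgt
Tnf promoter, chr17:35201958-35202257, minus strand: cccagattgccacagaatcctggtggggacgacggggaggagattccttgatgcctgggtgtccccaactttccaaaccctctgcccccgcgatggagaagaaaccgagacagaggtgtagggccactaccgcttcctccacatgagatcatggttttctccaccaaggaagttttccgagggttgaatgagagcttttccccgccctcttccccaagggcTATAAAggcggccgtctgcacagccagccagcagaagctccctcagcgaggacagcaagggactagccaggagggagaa

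A promoter was given for 8 members in 11 windows. Relb and Nfkb1 had none and were not searched. The consensus was GGGRNWYYCC, where R is A or G, W is A or T, Y is C or T and N is any base. Sites outside the windows or with other letters were not sought. The consensus kappaB motif was found in windows of 4 members, Nfkbia, Nfkb2, Tnfaip3 and Rel (6 of 11 windows), against 1480 of 32851 windows of all genes (4.51%). In Nfkbia the site was GGAAATTCCC, 29 bases upstream of the start. In the first Nfkb2 window the sites were GGGAATTCCC, 39 bases upstream and overlapped by a second match 1 base on, and GGGGCTTTCC, 11 bases upstream. The other windows of Nfkb2 overlap each other and share GGGACTTTCC. Tnfaip3 held GGAAATCCCC 12 bases upstream and GGGACACCCC 125 bases upstream, and Rel held GGGAAATCCC 92 bases upstream, also overlapped by a second match. TATAAA lay 29 bases upstream in Tnf, 32 in Il1a and 31 in Il1b, in the place of a TATA box, against a share of 8.32% of all windows with this word anywhere. A further TATAAA stood 225 bases upstream in Tnfaip3. No overlap between the 2 kinds of match was found. Each match describes these letters only, and binding was not measured.

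**Figure D1:**
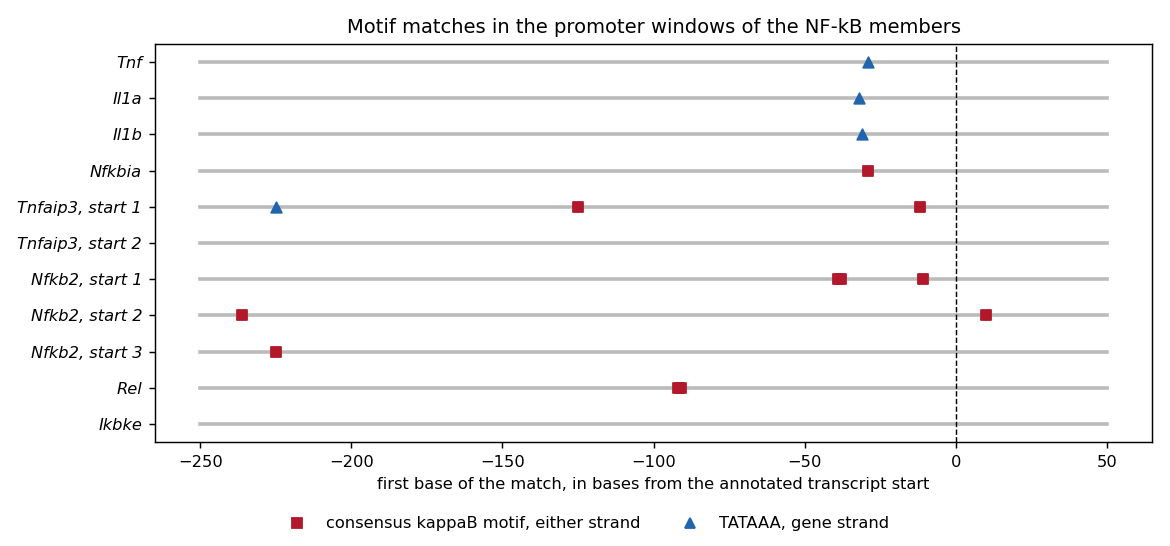
Matches to the consensus kappaB motif (squares, either strand) and to TATAAA (triangles, gene strand) in the 11 promoter windows of 8 members; the horizontal axis gives the first base of each match in bases from the annotated transcript start. KappaB matches lie in windows of Nfkbia, Tnfaip3, Nfkb2 and Rel, and TATAAA lies 29 to 32 bases upstream in the 3 cytokine genes.

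A second sequence feature lies at the other end of the messenger RNA. The AU-rich nonamer TTATTTATT, the word bound by the RNA-decay factor tristetraprolin (gene Zfp36), occurred 5 times, with overlaps, in the 764-base 3′ untranslated region of Tnf. It occurred once each in those of Nfkbia, Tnfaip3 and Rel, and in none of the other 6 members, taking the longest such region among each gene's protein-coding transcripts in GENCODE M21. Of 10522 tested genes with such a region, 8.34% held at least 1 nonamer and 1.83% held 2 or more. These shares take no account of length. The median region had 1176 bases, against 512 in Nfkbia, 1821 in Tnfaip3 and 5418 in Rel. A 30-base stretch of the Tnf region (chromosome 17) is shown, with the nonamers in capitals.
Tnf AU-rich stretch: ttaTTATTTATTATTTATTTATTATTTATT

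DON added to GM-CSF lowered 8 of the 10 members and raised 1. Tnf fell most, to 6.55 ± 0.669 CPM with DON against 29.6 ± 0.732 CPM with GM-CSF (SD, n = 2). Relb alone rose, and Nfkb2 did not pass the test, except when GM-CSF replicate 1 was left out. The calls of Il1a, Il1b and Ikbke were lost in some fits with 1 library left out. In DESeq2, 7 members were lower and 1 was higher. A gene is called changed here at an adjusted p under 0.05 (edgeR, quasi-likelihood F-test, with p-values adjusted by Benjamini and Hochberg's method across the 12340 genes). In this comparison 57.6% of all genes tested were called, 28.8% higher and 28.8% lower. A change of 2-fold or more was called for 2 members, Tnf and Il1b, and for 9.37% of all genes. The median log2 fold change of the members was -0.37, and that of all genes was 0.01.

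GM-CSF alone lowered 7 members and raised 1 relative to no GM-CSF. Ikbke fell most, to 7.30 ± 0.303 CPM with GM-CSF against 82.6 ± 8.68 CPM without it. Both inhibitors, Relb, Nfkb2, Nfkb1 and Tnf were also lower, Il1b was higher, and Il1a and Rel did not pass. Of all genes, 56.8% were called, 27.5% higher and 29.3% lower. Of the members 6 changed by 2-fold or more, as did 11.7% of all genes. The members' median was -1.05 on the log2 scale, against -0.02 over all genes.

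With GM-CSF and DON together, 8 members were lower than without GM-CSF and 0 were higher. Il1a and Il1b did not pass. The share called over all genes was 55.6%, with 27.2% higher and 28.4% lower. Of the members 4 changed by 2-fold or more (Tnf, Ikbke, Nfkbia and Tnfaip3), as did 11.6% of all genes. The medians were -0.85 for the members and 0.01 for all genes. Each pair of comparisons shares a group of libraries, so their values stand side by side below and are not independent. In bulk RNA, fewer cells of a type and less RNA per cell cannot be told apart.

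**Figure D2:**
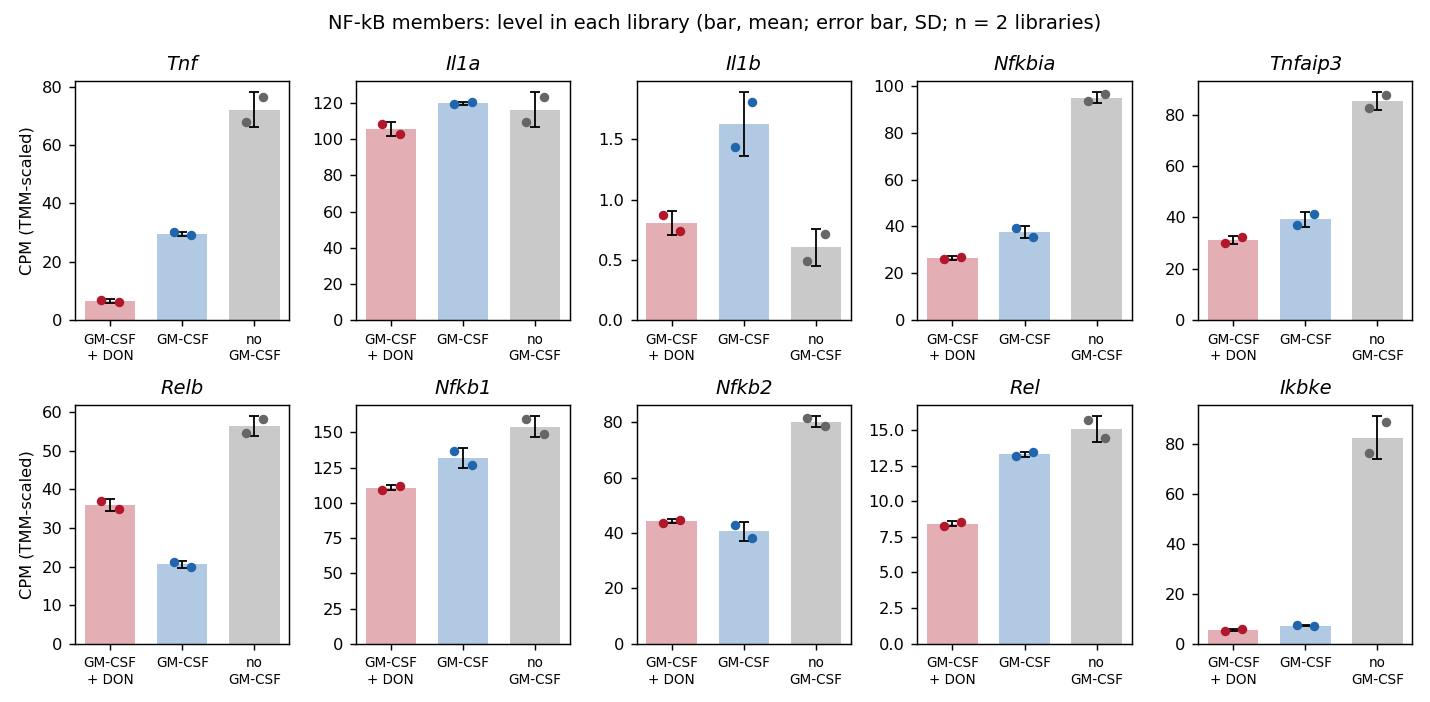
CPM of each member (vertical axes, linear from 0, a scale of its own in each panel) in the 6 libraries, by group: GM-CSF with DON, GM-CSF, no GM-CSF. Points are libraries, bars means and error bars the SD of 2 libraries; the means of Tnf, Nfkbia, Tnfaip3, Nfkb1, Rel and Ikbke are lowest with DON and highest without GM-CSF, while those of Relb and Nfkb2 are lowest with GM-CSF alone.

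Among the cytokines, Tnf encodes tumour necrosis factor, a secreted trimer that starts inflammatory signalling. Its level was 7.03 and 6.08 CPM in the DON libraries, 30.1 and 29.0 CPM with GM-CSF and 68.0 and 76.3 CPM without GM-CSF. The 3 groups did not overlap, and each step was larger than the spread between libraries. With DON the log2 fold change against GM-CSF was -2.18 ± 0.09 (SE; 4.52-fold lower, adjusted p = 9.51e-08). GM-CSF against no GM-CSF gave -1.29 ± 0.07 (2.44-fold lower, adjusted p = 2.72e-07). With GM-CSF and DON, Tnf was 11.04-fold lower than without GM-CSF (-3.47 ± 0.09).

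Il1a encodes IL-1 alpha, which is active without cleavage and can be stored in cells as an alarm signal. It was the most even of the members, at 108 and 103 CPM with DON, 119 and 120 CPM with GM-CSF and 110 and 123 CPM without GM-CSF. GM-CSF and no GM-CSF overlapped (0.04 ± 0.06, adjusted p = 0.576), and the sign of this difference turned without no GM-CSF replicate 1 (-0.039) while it was 0.128 without no GM-CSF replicate 2. The DON libraries lay below those with GM-CSF by a small margin (-0.18 ± 0.06, adjusted p = 0.025). That call was lost without GM-CSF replicate 1 (adjusted p = 0.0866), without GM-CSF replicate 2 (0.110) and without DON replicate 2 (0.159). Against no GM-CSF the DON value was -0.14 ± 0.06 (adjusted p = 0.0729), and it was -0.22 without no GM-CSF replicate 1 (adjusted p = 0.0079) and -0.05 without no GM-CSF replicate 2 (adjusted p = 0.496).

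Il1b encodes IL-1 beta, which needs cleavage by an inflammasome caspase. It was near the lower limit of measurement, with 25 and 24 counts with DON, 49 and 54 counts with GM-CSF and 16 and 24 counts without GM-CSF. These correspond to 0.805 ± 0.0969, 1.63 ± 0.265 and 0.602 ± 0.156 CPM in the same order. Il1b was highest with GM-CSF alone and the only member that rose with it (1.42 ± 0.32, 2.67-fold, adjusted p = 0.00356). With DON it fell by 1.01 ± 0.31 on the log2 scale (adjusted p = 0.018). This fall was not called without GM-CSF replicate 2 (adjusted p = 0.109), without DON replicate 2 (0.0991) or in DESeq2 (0.0629). The DON and no GM-CSF groups did not differ in the test (0.41 ± 0.35, adjusted p = 0.347), with values of 0.17 without no GM-CSF replicate 1 and 0.70 without no GM-CSF replicate 2, neither of them called. Il1a and Il1b lie 54597 bases apart on chromosome 2 (GRCm38, GENCODE M21), on the same strand.

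Of the inhibitors, Nfkbia encodes I kappa B alpha, the fast inducible brake on NF-kB. It stood at 25.9 and 27.1 CPM with DON, 39.4 and 35.7 CPM with GM-CSF and 93.6 and 96.7 CPM without GM-CSF. As for Tnf, the groups were separate and the DON libraries lowest. The log2 fold changes were -0.50 ± 0.06 for DON against GM-CSF (adjusted p = 9.83e-05), -1.34 ± 0.06 for GM-CSF against none (adjusted p = 5.00e-08) and -1.84 ± 0.06 for both against none.

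Tnfaip3 encodes A20, a ubiquitin-editing enzyme that ends signalling from TNF and Toll-like receptors. It had 30.03 and 32.3 CPM with DON, 37.1 and 41.3 CPM with GM-CSF and 82.7 and 87.6 CPM without GM-CSF, again with no overlap. DON lowered it slightly (-0.33 ± 0.07, 1.25-fold, adjusted p = 0.00256), and GM-CSF lowered it 2.18-fold (-1.12 ± 0.07, adjusted p = 3.39e-07). Both treatments together gave -1.45 ± 0.07.

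The subunits did not move alike. RelB, the partner of the processed Nfkb2 product, is encoded by Relb, which had 37.0 and 34.9 CPM with DON, 21.2 and 19.9 CPM with GM-CSF and 54.7 and 58.2 CPM without GM-CSF. It was the member that rose with DON, by 0.80 ± 0.07 on the log2 scale (1.75-fold, adjusted p = 5.15e-06). With GM-CSF it fell 2.74-fold (-1.46 ± 0.06, adjusted p = 4.85e-08). The DON libraries stood between the other groups, and remained 1.57-fold below those without GM-CSF (-0.65 ± 0.06, adjusted p = 1.09e-05).

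Nfkb2 encodes p100, the precursor of p52 and an inhibitor in its own right. Its level was 43.7 and 44.8 CPM with DON, 42.9 and 38.2 CPM with GM-CSF and 81.6 and 78.8 CPM without GM-CSF. GM-CSF lowered it 1.98-fold (-0.98 ± 0.06, adjusted p = 5.70e-07). DON against GM-CSF gave 0.13 ± 0.06, which did not pass (adjusted p = 0.119). It was 0.21 without GM-CSF replicate 1 (adjusted p = 0.0322) and 0.05 without GM-CSF replicate 2 (adjusted p = 0.547). Against no GM-CSF the DON libraries were lower (-0.86 ± 0.06).

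Nfkb1 encodes p105 and p50, the usual partner of RelA and c-Rel. It was at 109 and 112 CPM with DON, 137 and 127 CPM with GM-CSF and 159 and 149 CPM without GM-CSF. Its steps were small, with -0.25 ± 0.05 for DON against GM-CSF (adjusted p = 0.00297) and -0.23 ± 0.05 for GM-CSF against none (adjusted p = 0.00518). The second was not called without GM-CSF replicate 2 (-0.18, adjusted p = 0.052). Over both steps the change was -0.48 ± 0.05.

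Rel encodes c-Rel, a subunit enriched in blood cells. It had 8.28 and 8.54 CPM with DON, 13.2 and 13.4 CPM with GM-CSF and 15.7 and 14.4 CPM without GM-CSF. DON lowered it 1.58-fold (-0.66 ± 0.09, adjusted p = 0.000127), while GM-CSF against none did not pass (-0.18 ± 0.08, adjusted p = 0.0862). The latter value was -0.12 without no GM-CSF replicate 1 and -0.24 without no GM-CSF replicate 2. Relb and Rel thus moved in opposite directions with DON.

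Ikbke encodes IKK epsilon, a kinase related to TBK1 that acts in NF-kB and interferon signalling. It had 5.14 and 5.74 CPM with DON, 7.51 and 7.08 CPM with GM-CSF and 76.4 and 88.7 CPM without GM-CSF. The fall with GM-CSF was the largest of the members (-3.50 ± 0.09, 11.3-fold, adjusted p = 1.48e-09). DON lowered the remaining level by 0.42 ± 0.12 on the log2 scale (adjusted p = 0.0132). That smaller step was not called without GM-CSF replicate 1 (adjusted p = 0.0811) or without DON replicate 1 (0.0882). With both, Ikbke was 15.1-fold lower than without GM-CSF (-3.92 ± 0.10).

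**Figure D3:**
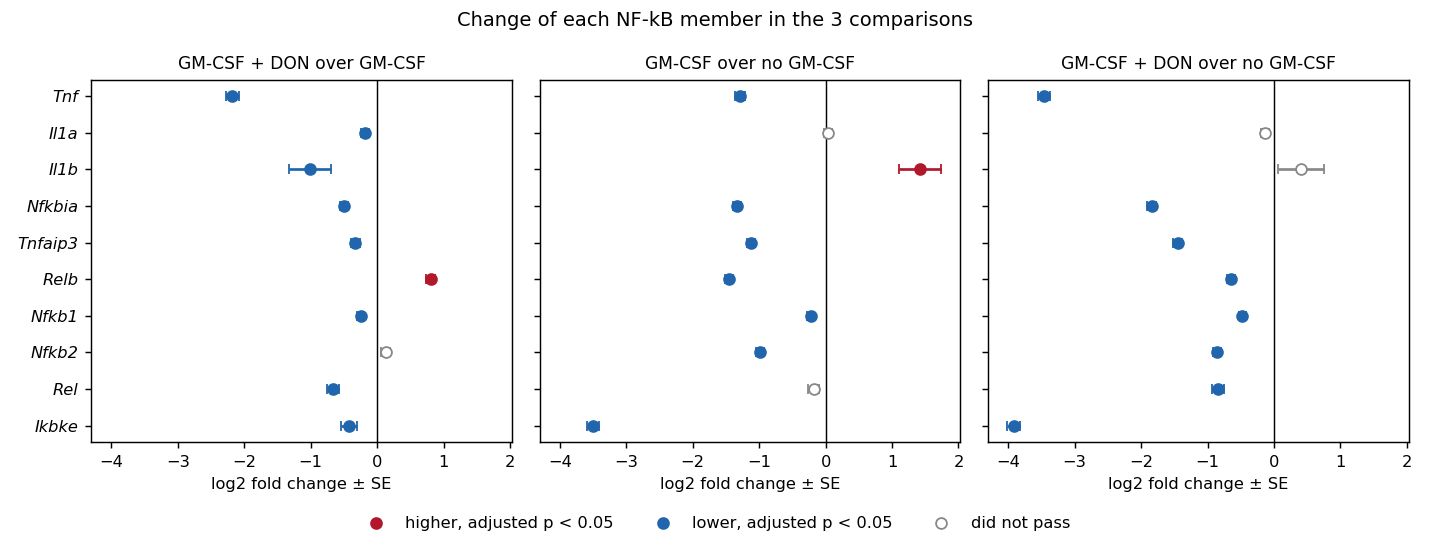
Log2 fold change ± SE (horizontal axis) of the 10 members in each of the 3 comparisons; filled points passed an adjusted p under 0.05 and open points did not. With DON over GM-CSF, Tnf lies at -2.18 and Relb alone stands to the right of 0 among the called members, and with GM-CSF over no GM-CSF Ikbke lies at -3.50.

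Levels can be set side by side between genes only per length, for which the authors' FPKM values were used. With DON the order was Il1a (58.9 ± 2.10 FPKM, SD, n = 2), Nfkb1 (37.7 ± 1.74), Nfkbia (19.0 ± 0.624), Relb (17.7 ± 0.615), Nfkb2 (15.2 ± 0.269), Tnfaip3 (7.91 ± 0.585), Tnf (4.49 ± 0.460), Rel (3.21 ± 0.0662), Ikbke (2.07 ± 0.0966) and Il1b (0.686 ± 0.0826). No neighbours in that order overlapped. With GM-CSF alone the order began with Il1a (67.4 ± 0.462 FPKM), Nfkb1 (45.1 ± 4.32), Nfkbia (27.1 ± 1.82) and Tnf (20.4 ± 0.474), and it ended with Rel, Ikbke and Il1b. Tnfaip3 (10.9 ± 1.08) and Relb (10.1 ± 0.420) overlapped.

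Without GM-CSF, Nfkbia (68.5 ± 1.44 FPKM) and Il1a (65.2 ± 5.16) led and overlapped. Nfkb1 (52.1 ± 3.40) and Tnf (49.8 ± 3.87) overlapped next, followed by Ikbke (34.5 ± 4.47). Relb (27.8 ± 1.20) and Nfkb2 (27.7 ± 0.773) could not be told apart. Tnfaip3 stood at 23.9 ± 0.620, Rel at 5.77 ± 0.360 and Il1b at 0.515 ± 0.133 FPKM.

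Ratios of FPKM within a library show how the balance between members differed. The Il1a level was 12.5 and 13.8 times the Tnf level with DON, 3.23 and 3.37 times with GM-CSF and 1.31 times in both libraries without GM-CSF. Relb per Rel was 5.74 and 5.30 with DON, 2.06 and 1.90 with GM-CSF and 4.47 and 5.19 without GM-CSF. Relb per Nfkbia was 0.976 and 0.887 with DON, against 0.367 and 0.381 with GM-CSF and 0.400 and 0.412 without GM-CSF. The Relb to Nfkbia ratio was thus highest with DON, in both libraries. Relb per Nfkb1 was instead highest without GM-CSF (0.495 and 0.577), against 0.465 and 0.472 with DON and 0.217 and 0.234 with GM-CSF. Nfkb2 per Nfkb1 was also highest without GM-CSF (0.519 and 0.547), against 0.385 and 0.421 with DON and 0.309 and 0.315 with GM-CSF. FPKM and counts did not scale exactly for every member. The length implied by their ratio varied between libraries by 7.88% for Ikbke, 4.91% for Tnfaip3 and 3.49% for Nfkb1 (coefficient of variation), and by under 1% for the other 7. By FPKM the DON against GM-CSF log2 ratio was -0.57 for Ikbke and -0.46 for Tnfaip3.

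**Figure D4:**
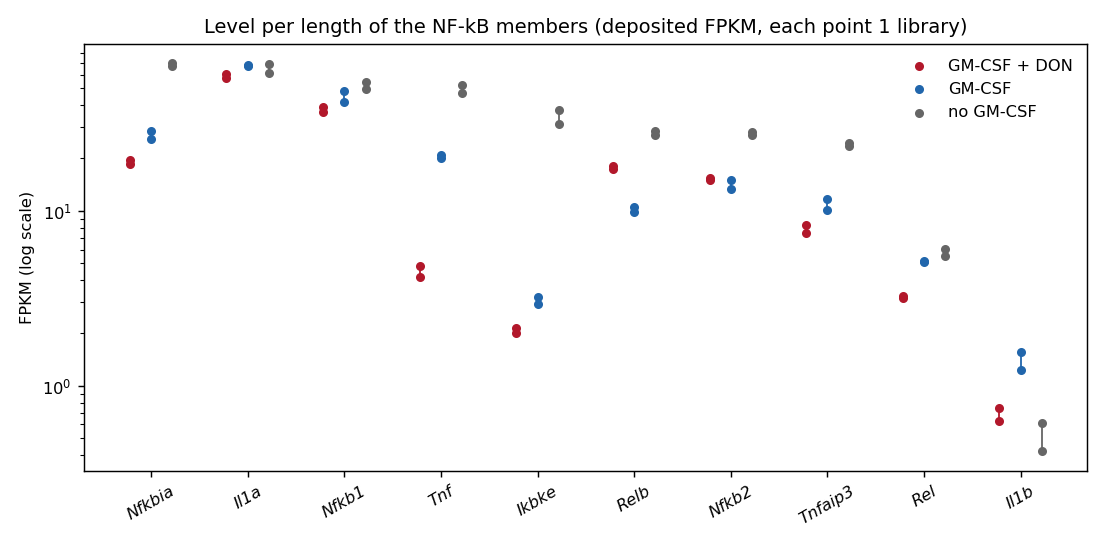
Deposited FPKM (vertical axis, log scale) of the 10 members in each library, ordered by their level without GM-CSF; each point is 1 library, and lines join the 2 libraries of a group. Ikbke and Tnf lie near 34.5 and 49.8 FPKM without GM-CSF and at 2.07 and 4.49 FPKM with DON, while Il1a stays between 57.5 and 68.8 FPKM in the 6 libraries.

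The other genes of the pathway were counted in lists beside the members. Over all genes tested, 57.6% were called for DON against GM-CSF, 56.8% for GM-CSF against none and 55.6% for both against none. A list with shares near these did not stand out. Of 20 further inhibitors and feedback regulators, 9 rose and 8 fell with DON against GM-CSF, with a median log2 fold change of 0.08. The share of this list called was 85.0%, 75.0% and 80.0% in the same order of comparisons. Trib3, a pseudokinase induced by stress, rose to 102 ± 2.30 CPM with DON, against 20.1 ± 2.76 CPM with GM-CSF and 4.53 ± 0.446 CPM without it. Nfkbiz, an atypical nuclear I kappa B protein, was at 3.59 ± 0.260 CPM with DON, 1.62 ± 0.111 CPM with GM-CSF and 7.002 ± 0.619 CPM without GM-CSF, so that it rose with DON (1.14 ± 0.17). Other atypical members fell with DON, Bcl3 by 1.22 ± 0.13 and Nfkbid by 0.76 ± 0.11 on the log2 scale. Nfkbie, a classical I kappa B gene, fell by 0.52 ± 0.08, whereas Nfkbib, another, rose by 0.45 ± 0.06.

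Regulators of TNF signalling did not all move one way with DON. Zfp36, whose product promotes decay of the Tnf messenger RNA, fell to 32.7 ± 3.20 CPM with DON against 67.1 ± 2.30 CPM with GM-CSF (-1.04 ± 0.07, adjusted p = 1.09e-06). Tnip1, which encodes the A20 partner ABIN-1, rose to 139 ± 4.83 CPM with DON against 85.8 ± 3.51 CPM with GM-CSF (0.69 ± 0.05). The A20 cofactor gene Tax1bp1 (0.15 ± 0.04) and the ubiquitin ligase gene Itch (0.34 ± 0.05) rose slightly with DON.

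With GM-CSF against none, 14 of these 20 regulators fell and 1 rose, with a median of -0.34. The riser was Trib3 (2.15 ± 0.11). Nfkbid fell most, to 13.0 ± 1.73 CPM with GM-CSF against 57.7 ± 4.64 CPM without it (-2.14 ± 0.09). Nfkbiz (-2.10 ± 0.16), Bcl3 (-1.11 ± 0.10), Nfkbie (-0.95 ± 0.07) and Tnip1 (-0.74 ± 0.05) were lower as well. With GM-CSF and DON against none, 12 fell and 4 rose, and Nfkbid (-2.90 ± 0.10), Bcl3 (-2.33 ± 0.12) and Nfkbie (-1.47 ± 0.07) were among the fallers.

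Among 33 genes of the remaining subunit, kinases and adaptors, 14 rose and 6 fell with DON, and 0 were called with a change of 2-fold or more. The share called was 60.6% for DON against GM-CSF, 63.6% for GM-CSF against none and 54.5% for both against none. These lie near the shares over all genes (57.6%, 56.8% and 55.6%). Rela, the main activating subunit, was at 113 ± 2.58 CPM with DON, 90.8 ± 0.0402 CPM with GM-CSF and 119 ± 1.17 CPM without GM-CSF. It rose with DON (0.32 ± 0.05, adjusted p = 0.000171) and fell with GM-CSF (-0.39 ± 0.04, adjusted p = 4.15e-05). The core kinase genes moved little. With DON, Ikbkb rose by 0.19 ± 0.06, Ikbkg by 0.32 ± 0.05 and Tbk1 by 0.14 ± 0.05 on the log2 scale, and Chuk fell by 0.16 ± 0.05. Tbk1, the relative of Ikbke, was at 90.1 ± 1.18 CPM with DON, 81.8 ± 1.70 CPM with GM-CSF and 101 ± 1.83 CPM without GM-CSF, where Ikbke differed 11.3-fold between the last 2 groups.

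GM-CSF against none lowered 16 of these 33 genes and raised 5, with a median of -0.14. Ripk2, the kinase of NOD receptors, was the only one called at 2-fold or more, at 32.7 ± 2.73 CPM with GM-CSF against 14.4 ± 1.65 CPM without it (1.18 ± 0.09). With GM-CSF and DON against none, 8 rose and 10 fell. Traf3 (-1.07 ± 0.05) and Map3k14, which encodes the noncanonical kinase NIK (-1.05 ± 0.13), fell, and Ripk2 rose (1.05 ± 0.09). Of the signalling adaptors and kinases with DON against GM-CSF, Malt1 fell (-0.55 ± 0.04), Irak2 rose (0.47 ± 0.05) and Irak1 did not pass (0.02 ± 0.05).

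Of 11 receptors and antagonists of the TNF and IL-1 families tested, 9 fell with DON and 1 rose, with a median of -0.38. The share called was 90.9% for DON against GM-CSF, 54.5% for GM-CSF against none and 72.7% for both against none. Over all genes it was 57.6%, 56.8% and 55.6%. Il1rn, which encodes the IL-1 receptor antagonist, was at 44.5 ± 0.437 CPM with DON, 134 ± 4.08 CPM with GM-CSF and 146 ± 6.82 CPM without GM-CSF. It fell 3.01-fold with DON (-1.59 ± 0.05, adjusted p = 2.95e-08), and GM-CSF against none did not pass (-0.12 ± 0.05, adjusted p = 0.0576). The receptor gene Il1r1, with 16 and 28 counts with DON against 69 and 73 counts with GM-CSF, fell by 1.64 ± 0.29. Il1rl1, the IL-33 receptor gene, had 2 and 5 counts with DON against 21 and 29 with GM-CSF, and fell by 2.75 ± 0.56. Il18rap had no counts with DON and 5 and 11 with GM-CSF, at least 2.62-fold lower against a floor of 3 counts per library. The riser was Il18bp, the IL-18 binding protein gene (1.20 ± 0.20).

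Tnfrsf1b, which encodes TNF receptor 2, had 303 and 310 CPM with DON, 359 and 364 CPM with GM-CSF and 1252 and 1224 CPM without GM-CSF. Its fall with GM-CSF (-1.78 ± 0.04, 3.42-fold, adjusted p = 3.82e-10) compares with -0.15 ± 0.05 for Tnfrsf1a, the gene of TNF receptor 1. With DON against GM-CSF, Tnfrsf1b fell by 0.24 ± 0.04 and Tnfrsf1a by 0.38 ± 0.05. In all, GM-CSF against none lowered 4 of the 11 and raised 2, with a median of -0.12. Il18bp fell (-1.08 ± 0.20) and Il1rl1 rose (1.52 ± 0.47). With both treatments against none, 7 fell and 1 rose.

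The genes of cytokine maturation and release numbered 13. With DON 3 rose and 3 fell, with a median of 0.02. The share called was 46.2% for DON against GM-CSF and 92.3% in each of the other comparisons. Over all genes it was 57.6% for DON against GM-CSF, 56.8% for GM-CSF against none and 55.6% for both against none. Casp4, which encodes caspase-11 of the mouse, rose to 32.7 ± 2.76 CPM with DON against 15.3 ± 0.546 CPM with GM-CSF (1.09 ± 0.08, adjusted p = 2.79e-06). Adam17, the protease that sheds TNF, was at 267 ± 9.03 CPM with DON, 206 ± 2.25 CPM with GM-CSF and 413 ± 13.0 CPM without GM-CSF. It rose with DON (0.37 ± 0.04) and fell with GM-CSF (-1.01 ± 0.04). GM-CSF against none lowered 9 of the 13 and raised 3, among them Casp8 (0.66 ± 0.05), with a median of -0.46. Rhbdf2, a cofactor of Adam17, did not pass in any comparison (-0.06 ± 0.05 for the first 2). With both treatments 10 were lower than without GM-CSF and 2 were higher, and Nlrc4, an inflammasome sensor gene, fell most (-1.22 ± 0.10).

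Other cytokine targets moved in both directions and by more. Of 22 listed, 17 had a row in the count table and 10 were tested. Those with no row were Il6, Il10, Il12a, Csf2 and Ccl20. Of the 10 tested, 1 rose and 5 fell with DON, while 5 rose and 4 fell with GM-CSF. With both treatments against none, 5 rose and 4 fell. The share called was 60.0% for DON against GM-CSF, near that of all genes (57.6%). It was 90.0% for GM-CSF against none and 90.0% for both against none, against 56.8% and 55.6% of all genes. Ccl3 was at 277 ± 4.54 CPM with DON, 682 ± 18.5 CPM with GM-CSF and 53.8 ± 3.03 CPM without GM-CSF, so that unlike Tnf it was lowest without GM-CSF. Ccl2 fell by 3.33 ± 0.11 on the log2 scale with DON and Ccl4 by 2.98 ± 0.10. Ccl22 followed the order of Tnf, with 1.90 ± 0.172 CPM with DON, 9.42 ± 0.209 CPM with GM-CSF and 22.3 ± 1.62 CPM without GM-CSF. Cxcl3 was highest with GM-CSF, at 8.45 ± 0.657 CPM, against 2.48 ± 0.536 CPM with DON and 1.09 ± 0.0264 CPM without it. Cxcl16 was the riser with DON (0.57 ± 0.07), after a fall of 1.63 ± 0.07 with GM-CSF. Csf1, the macrophage growth factor gene, rose with GM-CSF (2.17 ± 0.15) and did not pass with DON (0.16 ± 0.12). Il12b had between 0 and 3 counts per library and was not tested. Il23a, Lta, Ltb, Csf3, Cxcl10 and Ccl5 were also too sparse to test.

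Of 25 tested targets that are not cytokines, 8 rose and 11 fell with DON, with a median of -0.07. The share called was 76.0% for DON against GM-CSF, 68.0% for GM-CSF against none and 72.0% for both against none. Over all genes it was 57.6%, 56.8% and 55.6%. Nos2, the inducible nitric oxide synthase gene, had 59 and 77 counts with DON, 1 and 0 with GM-CSF and 0 and 1 without GM-CSF. The ratio of DON to GM-CSF was 142, with an exact 95% counting interval of 25.1 to 5650. Ptgs2 had 0 and 2 counts with DON against 6 and 9 with GM-CSF, a ratio of 0.139 (0.0154 to 0.599). Such intervals and floors take in counting error alone, and leave out the spread between replicates. F3, the tissue factor gene, had 6 and 12 counts with DON against 54 and 52 with GM-CSF, and fell by 2.49 ± 0.36 on the log2 scale. Icam1, an adhesion molecule gene, was at 41.4 ± 1.80 CPM with DON, 75.0 ± 6.15 CPM with GM-CSF and 162 ± 1.68 CPM without GM-CSF, in the order seen for Tnf. The lectin receptor gene Clec4e was at 89.1 ± 1.72, 40.6 ± 4.62 and 259 ± 21.4 CPM in the same groups, in the order seen for Relb. Sqstm1, an autophagy receptor gene, rose to 785 ± 9.63 CPM with DON, against 393 ± 18.9 CPM with GM-CSF.

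GM-CSF against none lowered 12 of these 25 genes and raised 5, with a median of -0.17. The fallers included Clec4e (-2.67 ± 0.08), Gadd45b (-1.58 ± 0.10) and Icam1 (-1.11 ± 0.06). Ier3 (2.36 ± 0.13), the costimulatory gene Cd80 (1.43 ± 0.12) and the urokinase receptor gene Plaur (1.04 ± 0.04) rose. With both treatments against none, 6 rose and 12 fell, among them Icam1 (-1.97 ± 0.06) and Cd86 (-1.64 ± 0.13). Bcl2l1, a survival gene and target of the pathway, was at 231 ± 2.63 CPM with DON, 238 ± 0.144 CPM with GM-CSF and 257 ± 13.3 CPM without GM-CSF.

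**Figure D5:**
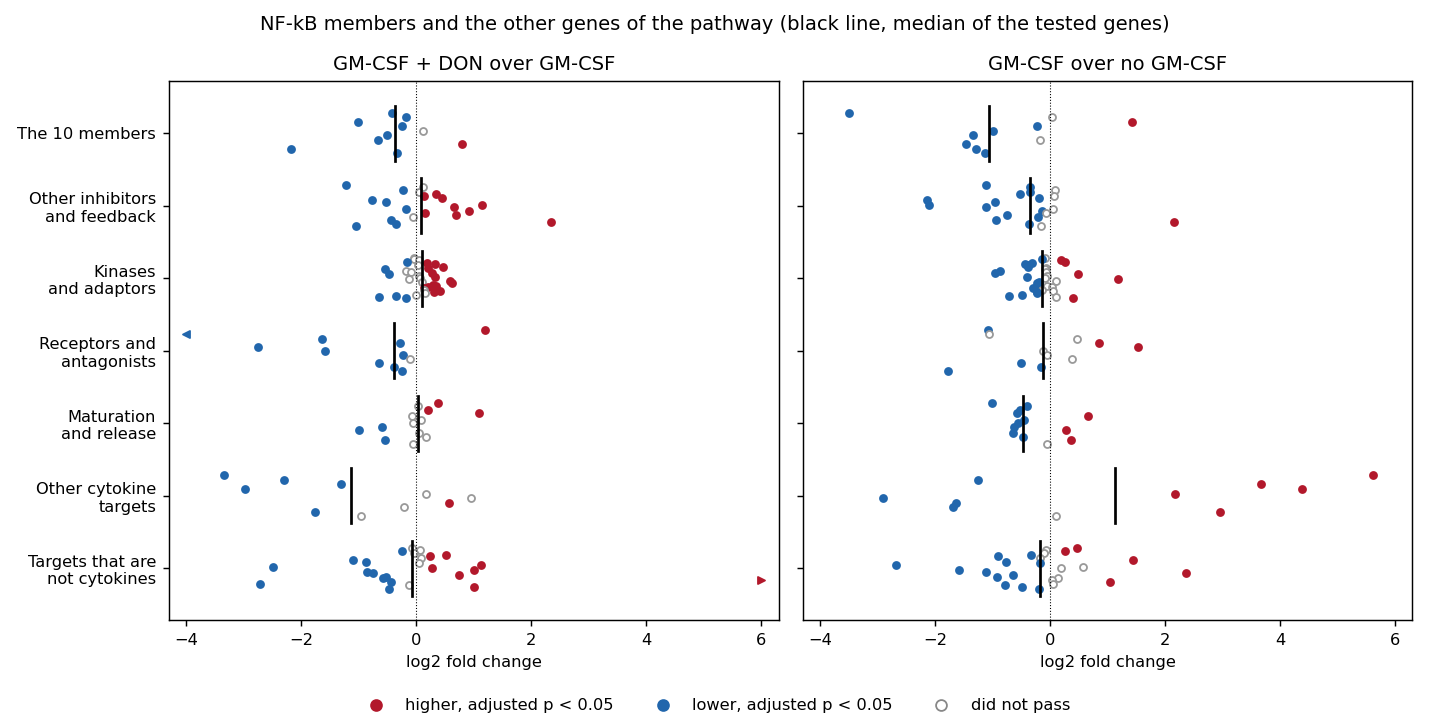
Log2 fold change (horizontal axis) of each tested gene in the 10 members and 6 other lists of the pathway, for GM-CSF with DON over GM-CSF (left) and GM-CSF over no GM-CSF (right). Filled points passed an adjusted p under 0.05, open points did not, black lines are medians of the tested genes, and arrowheads mark the sparse genes Il18rap and Nos2 beyond the axis; the members' medians are -0.37 and -1.05.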

How the data were processed

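Whole-number counts per gene symbol and FPKM values were deposited by the authors in 2 tables, with 1 column per library for 6 libraries and 0 columns left unused. Per the submitters' processing notes the mouse build was mm10 (GRCm38), and the tools named were featureCounts, STAR 2.6.0a, DESeq2 1.28.1 and Subread 1.4.6, with no roles; the annotation, the strand setting and the lengths behind FPKM are not stated there. Groups and replicate numbers came from the sample titles. The members and gene lists were chosen with earlier results of these data known.

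Counts were filtered with filterByExpr (minimum count 10) and fitted in edgeR 4.0.16 (R 4.3.3) with TMM scaling, 1 coefficient per group over all 6 libraries and 3 residual degrees of freedom, without a replicate block. Tests were two-sided quasi-likelihood contrasts, and SE is the log2 fold change over the square root of F. The steps were tested on simulated data. FPKM served for levels between genes, for ratios within a library and to check the changes of Ikbke and Tnfaip3 with DON. It was not used in the tests. Of 180 entries in 11 further lists, 164 were found, 4 list entries by an older symbol. Named genes were all members and, per list, the 3 with the highest mean CPM, up to 4 per comparison with the largest change among those called at 2-fold or more, and a fixed set of cytokine receptor and core kinase genes. Nfkbib, Il12b, Lta and Traf1 fall outside that rule and were chosen after their values were seen. Genes named only as having no row or as too sparse to test also fall outside that rule. Replicates differed by more than sampling noise, with chi-square per degree of freedom of 4.50, 5.29 and 8.46 with DON, with GM-CSF and without it. Nfkb2 overlaps Psd on the other strand, which had 2.73 ± 0.0972, 2.24 ± 0.229 and 4.71 ± 0.227 CPM (SD, n = 2) in the same order.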

Additional observations from a re-analysis of the deposited data

How the results depend on the processing

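Each count of calls and each member's log2 fold change was recomputed with RLE size factors, no filter on low counts, DESeq2 1.42.0, only the 4 libraries compared, a replicate block and each library left out. Over 330 such values of the members, 318 kept their direction and their side of the threshold, 9 lost the call, 2 gained it and 1 reversed. The reversed value was Il1a for GM-CSF against none without no GM-CSF replicate 1 (-0.039 against 0.042, called in neither; its range with 1 library left out was -0.039 to 0.128); the lost and gained calls were of Il1a, Il1b, Ikbke, Nfkb1 and Nfkb2, as given above. No total of calls moved by over 1.5 times. For the members this limit is loose, because nearly all were already called and their total could hardly rise. Fewer members were called lower with DON against GM-CSF when a library of either group was left out. Without GM-CSF replicate 1, Nfkb2 was also called higher. With the replicate block 6882 genes were called for DON against GM-CSF, 6708 for GM-CSF against none and 6542 for both against none, against 7111, 7014 and 6859 without it, and the members called stayed at 9, 8 and 8. The labels do not say that replicate numbers pair the libraries, and the replicate differences of groups correlated at 0.03, -0.19 and -0.05. RLE scaling shifted the median of all genes by at most 0.01 on the log2 scale. Depth limits Il1b, Il18rap, Nos2, Ptgs2 and Il1rl1, which rest on few counts.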

Other observations

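Some pathway genes too sparse for the test still differed in counts, and were chosen after their values were seen. Lta, the lymphotoxin alpha gene next in family to Tnf, had 6 and 2 counts with DON and 0 in each of the other 4 libraries. Traf1, a classical NF-kB target and adaptor of TNF receptor 2, had 1 and 1 counts with DON, 3 and 2 with GM-CSF and 10 and 15 without GM-CSF. The ratio of DON to no GM-CSF was 0.0866 for Traf1, with an exact 95% counting interval of 0.00994 to 0.347. Neither gene was tested between groups.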
